A study of Mus musculus with 8 samples.

Results

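The 7 genes described here are the mouse CXC chemokines that draw neutrophils, Cxcl1, Cxcl2, Cxcl3, Cxcl5 and Ppbp, together with their receptor gene Cxcr2 and the platelet chemokine gene Pf4. They were taken by gene name from a table of 54532 genes, and all 7 were among the 15963 genes with enough reads to be tested. The group was chosen from earlier results of the same libraries, in which Cxcl5 was higher after anti-BAFF antibody (Ab) and 1 mouse held more neutrophil transcripts, so the differences between treatment groups are a description for these genes, and counts of calls among them are printed beside the share of all genes and read no further. Male C57BL/6J mice of 2 antibody groups were compared. The mice ate a high-fat diet (HFD, 60% fat) for 12 weeks and then returned to normal chow (NCD, 16% fat). Their age at the start was taken as 6 weeks, which the paper states for its long-term HFD model. The paper's methods state 8 or 16 weeks. Over the 6 weeks on chow, until week 18, an antibody was injected at 2 mg/kg with an interval of 2 weeks, either Sandy-2, which binds BAFF, or an IgG1k control of the same isotype. BAFF is a survival factor of B cells, and the comparison asks how its blockade changes the adipose tissue of mice that were obese and then changed diet. RNA came from the stromal vascular fraction (SVF), the cells left after collagenase digestion of a gonadal fat pad once floating adipocytes and red blood cells are removed. Each library held the SVF of 1 mouse, mice 1, 2, 6 and 9 with control Ab and mice 5, 7, 8 and 10 with anti-BAFF Ab. Levels are counts scaled to library size (CPM), and FPKM is the same level per kb of gene length.

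The CXC chemokines are small secreted proteins named for a pair of cysteines separated by a single residue. Those with a Glu-Leu-Arg (ELR) motif before the cysteines bind CXCR2 on neutrophils and guide these cells out of blood vessels into inflamed tissue. Pf4 lies among the same genes but its protein lacks the motif and does not act through CXCR2. In adipose tissue, fibroblast-like progenitors, mesothelial cells, endothelial cells and macrophages can make CXCL1 and CXCL2 within hours of a signal from IL-1, TNF or IL-17. CXCL5 comes from epithelial, mesothelial and macrophage sources. PPBP and PF4 are stored in the granules of platelets, and PF4 is made by some tissue macrophages too.

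The 6 chemokine genes of the group stood in one cluster on chromosome 5 (mm10, plus strand), which ran for 146.6 kb from the start of Cxcl5 to the end of Cxcl2 and held 11 annotated genes. Cxcl5 lay at chr5:90759360-90761624, Ppbp at chr5:90768518-90770063, Pf4 at chr5:90772435-90773383 and Cxcl3 at chr5:90786103-90789600. After a gap without a well expressed gene came Cxcl1 at chr5:90891241-90893115 and Cxcl2 at chr5:90903871-90905938. The receptor gene Cxcr2 lay apart at chr1:74153989-74161246. Cxcl15, an ELR chemokine of the lung that stands in the same cluster, had 1 count in all 8 libraries together.

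The stretches just before the starts of Cxcl1, Cxcl2 and Cxcl3 are shown because these genes are known targets of NF-kB, the transcription factor that IL-1 and TNF activate. They run from 130 to 31 bases before each gene start in RefSeq (GRCm38.p6), at chr5:90891115-90891214, chr5:90903769-90903868 and chr5:90785971-90786070, on the plus strand. Capitals mark GGGNNTTTC, a core of the kB site, read on either strand.
Cxcl1: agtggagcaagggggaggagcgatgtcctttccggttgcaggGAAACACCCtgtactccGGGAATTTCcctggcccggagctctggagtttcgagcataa
Cxcl2: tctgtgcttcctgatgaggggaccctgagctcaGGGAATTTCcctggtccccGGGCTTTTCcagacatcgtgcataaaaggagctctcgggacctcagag
Cxcl3: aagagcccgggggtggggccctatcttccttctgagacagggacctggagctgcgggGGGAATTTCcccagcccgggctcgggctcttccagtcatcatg

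Of the 32851 promoters of 300 bases in the RefSeq table, 4.36% held the core. Cxcl1 and Cxcl2 held 2 sites each, Cxcl3 held 1, and Cxcr2 held 1 at 157 bases before its start, outside the stretch compared here. Ppbp and Pf4 held none in this window. All 3 sequences shown share the 11 bases GGGAATTTCCC, which 14 of the 32851 promoters (0.0426%) contain, at 71, 97 and 73 bases before the starts of Cxcl1, Cxcl2 and Cxcl3. The second motif searched, TGANTCA, the palindromic site of AP-1, occurred in 7.81% of promoters and among the group only in Ppbp, at 204 bases before the start. Aligned end to end, the windows of Cxcl1 and Cxcl3 were identical at 59.6% of columns, those of Cxcl1 and Cxcl2 at 49.5% and those of Cxcl2 and Cxcl3 at 48.1%. All other pairs among the 6 genes with a promoter entry were identical at 31% to 45.4% of columns. Cxcl5 was not among the promoter entries.

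The libraries held 13562340 to 18548024 counts. Control Ab mouse 1 stood apart from the rest, with a median correlation of 0.959 with the other 7 libraries over all tested genes against 0.970 to 0.976 for the other mice, and it is left out in turn where a result may rest on it. Anti-BAFF Ab mouse 5 stood apart in neutrophil transcripts, as described with Cxcr2. The summed level of 9 B cell markers was 1471 to 2407 CPM in control Ab-treated and 221 to 540 CPM in anti-BAFF Ab-treated mice, so the B cell genes fitted the labels in all 8 mice. Macrophage markers (4671 to 6133 CPM with control Ab) and adipose progenitor markers (5990 to 8380 CPM) were abundant. Genes of the epididymis, which adjoins this fat pad, summed to 15.9 to 1870 CPM in control Ab-treated and 69.7 to 1940 CPM in anti-BAFF Ab-treated mice.

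Per gene length the group fell into 3 abundant and 4 scarce genes. Averaged over 8 mice, Cxcl1 stood at 486 ± 143 FPKM (SD), Cxcl2 at 310 ± 39.4 FPKM and Pf4 at 188 FPKM. Far below came Cxcl5 at 5.82, Cxcl3 at 3.16, Ppbp at 0.999 and Cxcr2 at 0.513 FPKM. Cxcl1 was above Cxcl2 in 7 of 8 mice, but the ranges of these neighbours overlapped. Cxcl2 was above Pf4 in all 8 mice, by 1.29 to 1.93 times, and Pf4 was 18.2 to 95.4 times above Cxcl5 without overlap. Cxcl5 was above Cxcl3 in 7 of 8 mice, Cxcl3 above Ppbp in 8 and Ppbp above Cxcr2 in 8, although the ranges of each of these neighbours overlapped across mice. The table's lengths of Cxcl1 (1875 bases), Cxcl2 (2068 bases) and Cxcl3 (3498 bases) equal their whole genomic span with introns, whereas that of Cxcl5 (1863 of 2265 bases) does not, so the FPKM of the first 3 is low against the rest. The order of Cxcl5 and Cxcl3 rests on these lengths, since by counts alone Cxcl5 exceeded Cxcl3 in 4 of 8 mice.

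**Figure D1:**
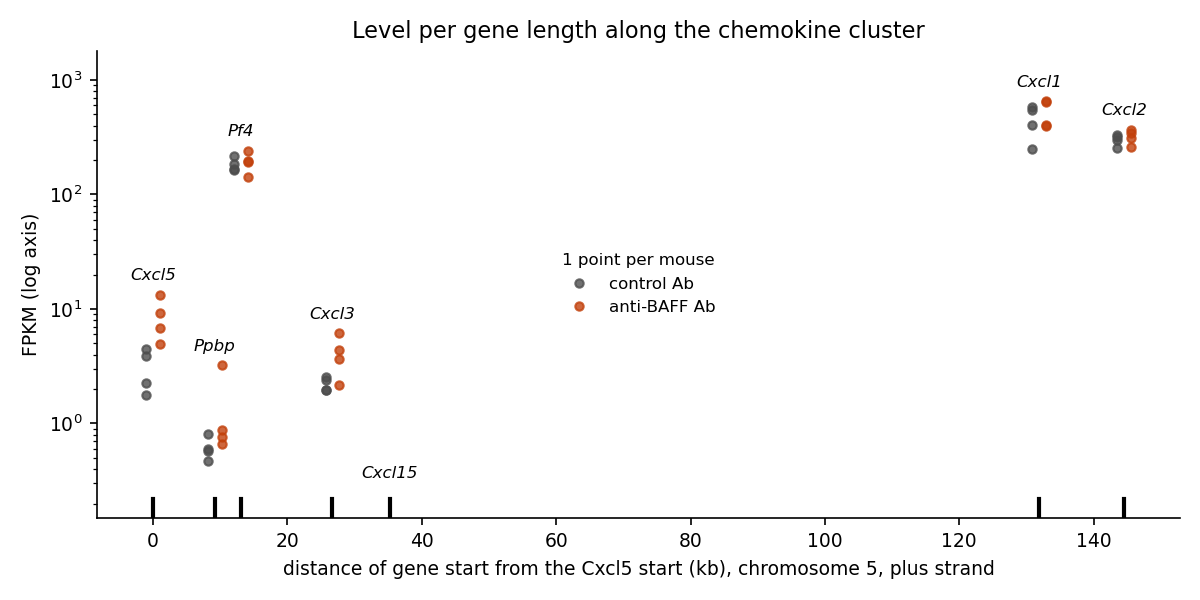
FPKM (log axis) of the chemokine genes in each mouse against the distance of each gene start from the Cxcl5 start in kb, with control Ab-treated mice in grey and anti-BAFF Ab-treated mice in orange; black ticks mark gene starts. Cxcl1 (mean 486 FPKM), Cxcl2 (310) and Pf4 (188) stand far above Cxcl5 (5.82), Cxcl3 (3.16) and Ppbp (0.999), and Cxcl15 is marked by its tick alone because it had 1 count in all.

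Cxcl1 and Cxcl2, the main neutrophil attractants of mouse tissue, were abundant in every mouse and their groups overlapped. With control Ab, Cxcl1 was at 466 CPM in mouse 1, 766 in mouse 2, 1093 in mouse 6 and 1023 in mouse 9. With anti-BAFF Ab it was at 745 CPM in mouse 5, 758 in mouse 7, 1214 in mouse 8 and 1223 in mouse 10. Mouse 1 was the lowest of all, and the ranges of the groups overlapped without it too, with mice 8 and 10 above every control. The log2 fold change of anti-BAFF over control Ab was 0.23 (SE 0.28), and 0.02 without mouse 1. For Cxcl2, the control Ab-treated mice 1, 2, 6 and 9 were at 523, 615, 655 and 679 CPM, and the anti-BAFF Ab-treated mice 5, 7, 8 and 10 at 640, 536, 710 and 762 CPM. This gene varied least of the group, with a highest level 1.46 times the lowest, and its log2 fold change was 0.10 (SE 0.13).

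Cxcl3 and Cxcl5 were scarce and were the genes of the group with the clearest separation by treatment. Cxcl5 was at 3.29, 4.20, 8.41 and 7.31 CPM in control Ab mice 1, 2, 6 and 9, and at 24.6, 9.18, 17.1 and 12.7 CPM in anti-BAFF Ab mice 5, 7, 8 and 10. Every anti-BAFF Ab-treated mouse was above every control Ab-treated mouse, with the narrowest gap between mouse 7 and mouse 6. Of all tested genes, 84 (0.526%) had their groups separated in this direction. The group means were 5.80 ± 2.45 and 15.9 ± 6.67 CPM (SD, n = 4 each), a log2 fold change of 1.46 (SE 0.37) that was 1.14 without mouse 5. Cxcl3, whose protein is close to CXCL2, was at 8.44, 6.86, 6.80 and 8.98 CPM in control Ab mice 1, 2, 6 and 9. In anti-BAFF Ab mice 5, 7, 8 and 10 it was at 21.5, 7.66, 15.4 and 12.9 CPM. Mouse 7 lay within the control range and the other 3 anti-BAFF Ab-treated mice above it. The means were 7.77 ± 1.11 and 14.4 ± 5.74 CPM, and the log2 fold change was 0.88 (SE 0.28), or 0.60 without mouse 5.

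**Figure D2:**
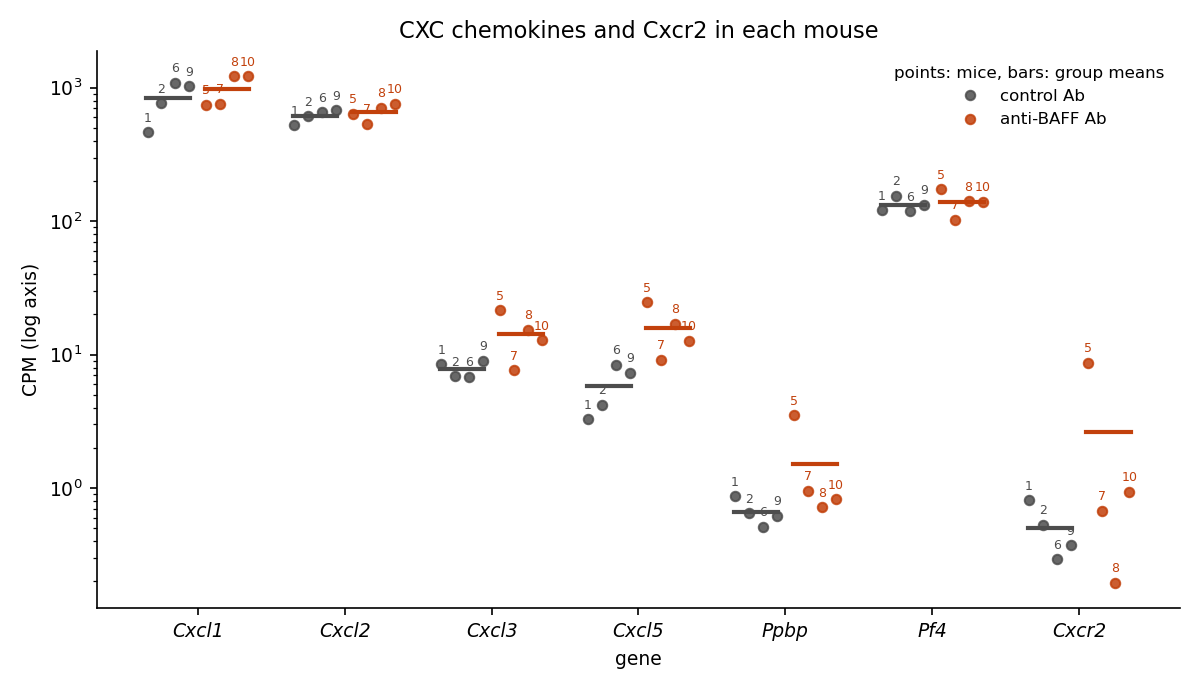
CPM (log axis) of the 7 genes in each mouse, with control Ab-treated mice in grey, anti-BAFF Ab-treated mice in orange, the mouse number above each point and the group mean as a bar. Cxcl5 is the gene whose groups do not overlap (3.29 to 8.41 against 9.18 to 24.6 CPM), while the raised group means of Ppbp and Cxcr2 follow the single point of mouse 5.

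Pf4 and Ppbp are both granule chemokines of platelets, yet Pf4 was 74.3 to 358 times above Ppbp per gene length. Pf4 was at 121, 155, 119 and 133 CPM with control Ab and at 173, 102, 141 and 140 CPM with anti-BAFF Ab, in the order of mice used above. The groups overlapped, mouse 5 being the highest and mouse 7 the lowest, and the log2 fold change was 0.08 (SE 0.16), turning to -0.06 without mouse 5. Of the 12 platelet markers 5 had enough reads to be tested. Itga2b, the platelet integrin, was at 11.4 ± 1.68 and 12.7 ± 2.36 CPM and Gp1ba at 1.42 ± 0.374 and 1.65 ± 0.333 CPM. These 2 had a log2 fold change above 0 and the other 3 below (Itgb3 -0.12, Treml1 -0.20, Vwf -0.25). Gp9, Tubb1, Gp6 and Gp1bb had 73, 27, 4 and 1 counts over all 8 libraries. Clec1b, with 63 counts and not tested, was at 0.186 to 0.496 CPM with control Ab and 0.539 to 0.732 CPM with anti-BAFF Ab. Of all tested genes, 0.526% were separated in this direction. The summed list, mostly Vwf, which endothelial cells also make, was 214 to 350 CPM with control Ab and 196 to 299 CPM with anti-BAFF Ab, and no gene of it was called at either threshold. Macrophage markers summed to 4671 to 6133 and 4921 to 5671 CPM in the same groups, and their part in the level of Pf4 was not tested. Ppbp, with 7 to 52 counts a library, was at 0.868, 0.650, 0.512 and 0.620 CPM in the control Ab-treated mice and at 3.50 CPM in mouse 5, 0.957 in mouse 7, 0.718 in mouse 8 and 0.827 in mouse 10. Mouse 5 alone stood clear of the control range by a wide margin. The log2 fold change of Ppbp was 1.15 (SE 0.55) with mouse 5 and 0.31 without it.

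Cxcr2, the receptor that neutrophils carry for these ligands, was high in mouse 5 and had 3 to 17 counts in each of the other mice. The control Ab-treated mice 1, 2, 6 and 9 were at 0.806, 0.532, 0.293 and 0.372 CPM. Among the anti-BAFF Ab-treated mice, mouse 5 was at 8.68 CPM, mouse 7 at 0.676, mouse 8 at 0.196 and mouse 10 at 0.938. Mouse 8 had 3 counts, which is the floor set here (0.165 to 0.219 CPM depending on the library), whereas mouse 5 had 129. The log2 fold change was 2.34 (SE 1.04) over all mice and 0.26 without mouse 5. Cxcr1, the other ELR chemokine receptor, had 5 counts in all and was not tested.

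The neutrophil marker list moved with Cxcr2 in mouse 5. Its 13 genes summed to 222 CPM in mouse 5 against 45.0 to 72.4 CPM in the other anti-BAFF Ab-treated mice and 49.1 to 71.6 CPM in the control Ab-treated mice. S100a8 and S100a9, which form the calprotectin of myeloid cells, were at 35.5 and 42.3 CPM in mouse 5 and at most 4.65 and 4.34 CPM in any other mouse. Csf3r, the receptor for the granulocyte growth factor G-CSF, was at 77.9 CPM in mouse 5 against 24.4 to 30.4 CPM in the rest. The gelatinase gene Mmp9, the largest part of the summed list in every mouse, was at 112 CPM in mouse 5 and 24.1 to 56.2 CPM elsewhere. The decoy receptor gene Il1r2 was highest there as well, at 23.6 CPM against 7.69 to 14.4 CPM. Among the genes with few reads, Stfa2l1 had 16 of its 23 counts and Ly6g 6 of its 9 counts in mouse 5. The granule genes of immature neutrophils were not raised in that mouse, with 0 counts of Ngp, 0 of Elane, 2 of Camp and 3 of Mpo. Retnlg was at 1.28 CPM in mouse 5 and 3.10 CPM in control Ab mouse 1. Ppbp was highest in mouse 5 too, while the platelet list without Vwf summed to 37.3 CPM there and to 37.2 to 43.9 CPM in the other mice. Most of that sum was Itgb3 and Itga2b, so scarce platelet genes such as Gp9 and Clec1b could hardly change it. The part of platelets in the Ppbp level was not tested. In bulk RNA, more cells of a type cannot be told apart from more RNA per cell. Of the 6 neutrophil genes tested, none passed the adjusted threshold. S100a9 (log2 fold change 2.59, SE 1.09) and Il1r2 (0.70, SE 0.25) had an unadjusted edgeR p under 0.05, as did 1.9% of all tested genes (0.664% higher). With DESeq2 or limma only Il1r2 of this list passed the unadjusted threshold. Without mouse 5 neither S100a9 nor Il1r2 passed it in edgeR, and Retnlg was then lower at an unadjusted p under 0.05. S100a9 also missed it without control Ab mouse 2, 6 or 9, and Il1r2 without control Ab mouse 1 or 2.

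**Figure D3:**
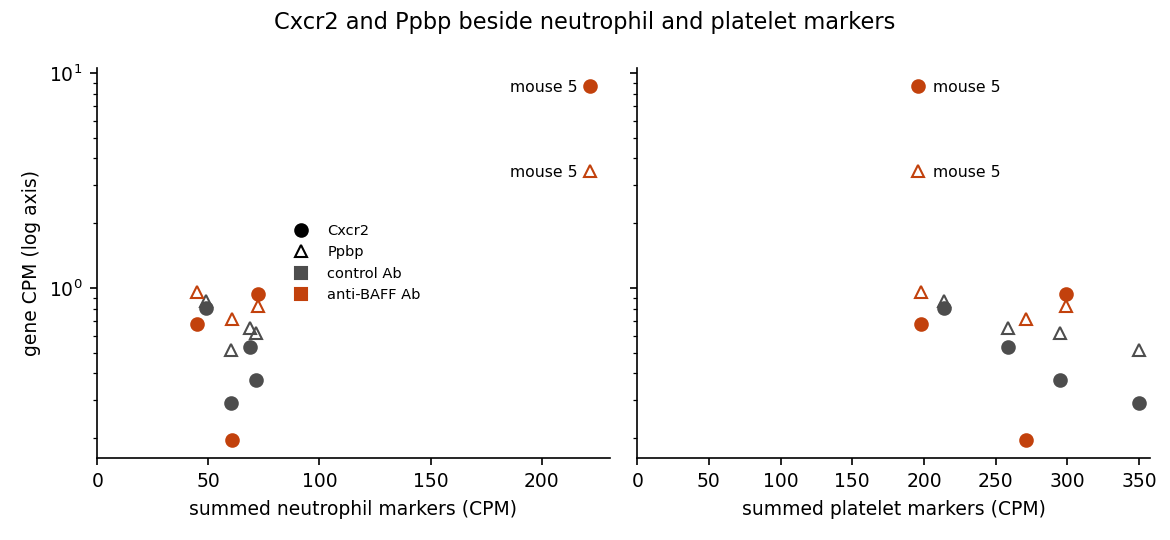
CPM (log axis) of Cxcr2 (filled circles) and Ppbp (open triangles) in each mouse against the summed CPM of 13 neutrophil markers on the left and of 12 platelet markers on the right. Mouse 5 lies far to the right of the other mice on the neutrophil axis (222 CPM, of which Mmp9 gave 112). On the platelet axis, a sum made mostly by Vwf, it lies at the low end (196 CPM).

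Across the whole table, edgeR's quasi-likelihood test with Benjamini-Hochberg adjustment called 9 of 15963 genes (0.0564%) at an adjusted p under 0.05, all of them lower with anti-BAFF Ab, and 0 genes (0%) higher. At an unadjusted p under 0.05 it counted 304 genes (1.9%), of which 106 (0.664%) were higher. None of the 7 genes of the group passed the adjusted threshold, and Cxcl3 and Cxcl5 passed the unadjusted one. With DESeq2, 4 of 26057 genes (0.0154%) were called higher at an adjusted p under 0.05, and Cxcl5 was among them. All 7 log2 fold changes of the group were above 0, as were 8214 of the 15963 over all tested genes. The median of the group was 0.88, whereas the median over all tested genes was 0.004. Without mouse 5 the median was 0.31 and Pf4 was below 0, and Cxcl3 and Cxcl5 again passed the unadjusted threshold, as 2.59% of all genes then did. Since the group was proposed with this contrast known, these counts describe it and support nothing further.

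**Figure D4:**
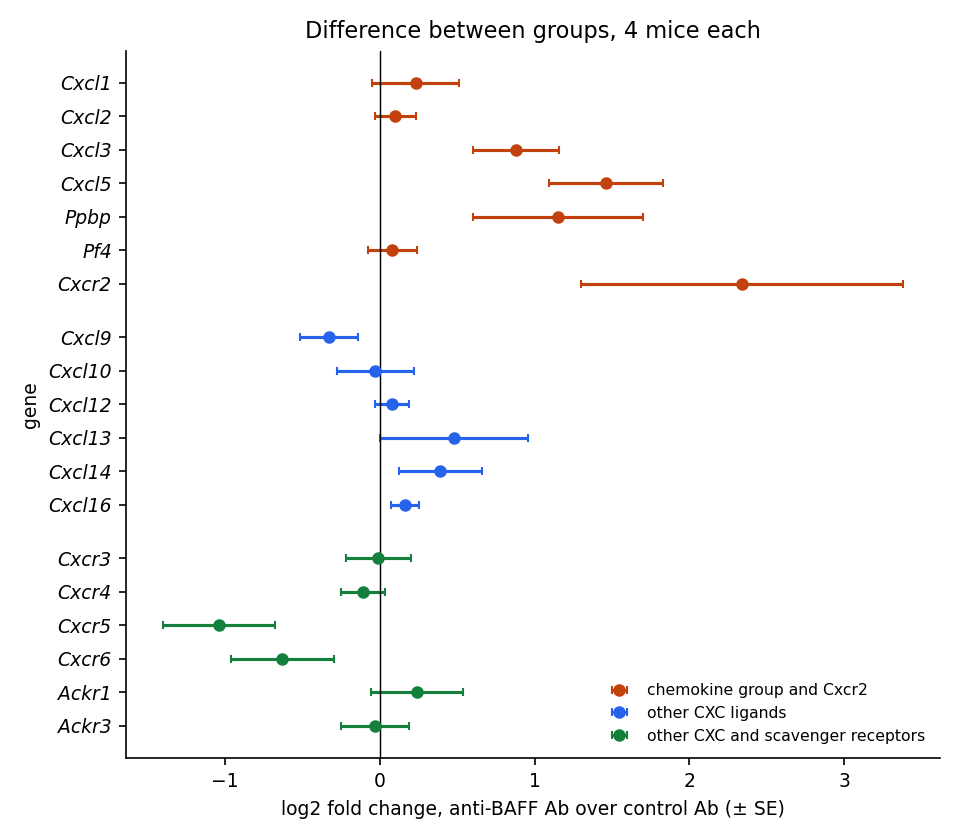
Log2 fold change of anti-BAFF over control Ab with its standard error, 4 mice a group, for the chemokine group with Cxcr2 (orange), the other CXC ligands (blue) and the other CXC and scavenger receptors (green) that had enough reads to be tested. Cxcl5 (1.46 ± 0.37) and Cxcl3 (0.88 ± 0.28) lie to the right of 0, the wide bars of Cxcr2 (2.34 ± 1.04) and Ppbp (1.15 ± 0.55) come with 1 high mouse, and Cxcr5 lies lowest at -1.04.

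The other CXC chemokine genes, most of which act on lymphocytes, monocytes or stem cells through other receptors, gave no call. Of 9 such ligand genes, Cxcl15 included, 6 were tested, 4 with a log2 fold change above 0 and 2 below, with a median of 0.12. Cxcl12, the stromal ligand of CXCR4, was the most abundant of them by count at 295 ± 23.5 CPM with control Ab and 311 ± 36.7 CPM with anti-BAFF Ab. Cxcl13, the B cell attractant of lymphoid follicles, was at 9.40 ± 5.09 and 13.2 ± 8.79 CPM. Of 7 other CXC and scavenger receptor genes 6 were tested, and Cxcr5, the CXCL13 receptor of B cells, had an unadjusted p under 0.05. Its level was 6.49 ± 1.88 CPM with control Ab and 3.17 ± 1.44 CPM with anti-BAFF Ab, a log2 fold change of -1.04 (SE 0.36), and it did not pass the adjusted threshold. Ackr1, the endothelial scavenger that carries ELR chemokines across venules, was at 25.9 ± 10.3 and 30.4 ± 8.93 CPM.

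None of the genes upstream of the chemokines was called. Of 16 genes for inducing cytokines, their receptors and adaptors, 14 were tested, 13 had a log2 fold change above 0 and 0 passed either threshold. The median was 0.22 against 0.004 over all tested genes, and 0.12 without control Ab mouse 1 or without anti-BAFF Ab mouse 8. Il1a was at 46.6 ± 13.2 CPM with control Ab and 62.2 ± 22.9 CPM with anti-BAFF Ab, and Il1b at 458 ± 196 and 531 ± 223 CPM. For Il1b the spread within each group was larger than the difference. Il1r1, the receptor for both, had a log2 fold change of 0.39 (SE 0.36), and Tnfrsf1b, the TNF receptor of leukocytes, 0.20 (SE 0.11). With 1 mouse left out, 0 to 3 of the 14 genes passed the unadjusted threshold. The 3 were Il1a, Il1rn and Tlr2 without mouse 7, where 2.17% of all genes passed. Without control Ab mouse 1, Il17rc and Tnf passed, 1 higher and 1 lower, where 10.5% of all genes did. Il17a and Il17f had 17 and 11 counts in all and were not tested.

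Other targets of NF-kB and IL-17 lay on both sides of 0. Of 21 such genes 20 were tested, 9 with a log2 fold change above 0 and 11 below, with a median of -0.01 and none past either threshold. Zfp36, an RNA-binding protein that shortens the life of chemokine mRNA, was the most abundant at 2151 ± 359 CPM with control Ab and 1948 ± 359 CPM with anti-BAFF Ab. The inhibitor gene Nfkbia was at 809 ± 60.1 and 859 ± 75.8 CPM. The largest fold changes were those of Lif (0.59, SE 0.34) and the acute-phase gene Saa3 (0.51, SE 0.82), neither past the threshold. Of 11 genes for the other attractant receptors, selectins and integrins that neutrophils use to leave the blood, 10 were tested and none passed either threshold. Among them Itgb2 was the most abundant, C5ar1 was at 279 ± 61.3 and 290 ± 18.6 CPM, and Fpr2 (0.81, SE 0.70) and Csf3r (0.53, SE 0.34) had the largest fold changes, Csf3r being highest in mouse 5.

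Markers of the cells that can make these ligands were not called. None of the 10 progenitor, 9 mesothelial, 9 endothelial or 12 macrophage markers was called at either threshold, and their median log2 fold changes were 0.09, -0.21, 0.03 and -0.01. All 9 mesothelial markers were below 0, and their sum ran from 347 CPM in control Ab mouse 1 to 1010 CPM in control Ab mouse 9, and from 576 to 757 CPM among the anti-BAFF Ab-treated. Without mouse 1, an unadjusted p under 0.05 was met by 1708 of 16261 genes (10.5%), 5.33% higher and 5.18% lower, against 1.9% with all mice. In that fit 6 of the 9 mesothelial markers, Upk3b among them, were lower, the macrophage markers Cd68 and Trem2 and the integrin genes Itgam and Itgb2 were higher, and the NF-kB and IL-17 targets Cebpd and Lcn2 were lower, with none of these at the adjusted threshold. Immediate early genes, which rise during tissue digestion, summed to 10200 to 16700 CPM with control Ab and 10200 to 15300 CPM with anti-BAFF Ab. Of these 10 genes 9 had a log2 fold change below 0 and none was called over all mice. Lower at an unadjusted p under 0.05 were Egr1, Fosb and Junb without mouse 1, and Atf3, Fos and Jun without mouse 5. The part of cell makeup and of digestion in the chemokine levels was not tested.

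Within each mouse, the ligands of CXCR2 were compared as shares of their summed counts, which do not depend on library size. Cxcl1 made up 55.8% ± 6.79 with control Ab against 58.1% ± 4.51 with anti-BAFF Ab, and Cxcl2 43.3% ± 6.65 and 39.9% ± 3.67. Together these genes took nearly all counts in every mouse, and their shares overlapped between the groups. Cxcl5 took 0.383% ± 0.0822 with control Ab against 0.980% ± 0.502 with anti-BAFF Ab (SD, n = 4 each), from 0.302 to 0.477% in the first group and from 0.631 to 1.72% in the second. Its share, like its level, did not overlap between groups. Since Cxcl1 and Cxcl2 make up nearly all of the sum, this share largely repeats the level of Cxcl5 and is no second result. Cxcl3 took 0.561% ± 0.197 and 0.877% ± 0.422. Single mice moved these differences in percentage points. That of Cxcl1, 2.37 over all mice, was -0.70 without mouse 1, and without mouse 5 that of Cxcl5 went from 0.597 to 0.352 and that of Cxcl3 from 0.316 to 0.109. The ratio of Cxcl1 to Cxcl2 counts was lowest in control Ab mouse 1 at 0.891 and ran from 1.16 to 1.71 in the other 7 mice. The ratio of Cxcl5 to Cxcl3 counts was 0.390 to 1.24 with control Ab and 0.987 to 1.20 with anti-BAFF Ab, so it spread over a narrower range in the second group.

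Whether the genes varied together from mouse to mouse was tested on log2 CPM over all 21 pairs with exact two-sided permutation tests. Mice were exchanged across the antibody groups, so a p also takes in any group difference that both genes share, as Cxcl3 and Cxcl5 do. The r after removal of group means was not tested. Cxcl1 and Cxcl2 rose and fell together (Pearson r = 0.88, exact permutation p = 0.00129, adjusted p = 0.0271 over 21 pairs; Spearman rho = 0.90, p = 0.00456, adjusted p = 0.0958, n = 8). This was the only pair past the adjusted threshold by Pearson, and no pair was by Spearman. Among the 4 control Ab-treated mice r was 0.98 and among the 4 anti-BAFF Ab-treated mice 0.85. After the group means were removed r was 0.88 over all 8 mice. By that measure 1022 protein-coding genes (7.18%) had an r above 0.9 with Cxcl1, so such likeness was not particular to this pair. Without the pair of mice farthest from the median of Cxcl1, control Ab mouse 1 and anti-BAFF Ab mouse 10, r was 0.76. Cxcl3 and Cxcl5 correlated less firmly (r = 0.83, exact permutation p = 0.0104, adjusted p = 0.0726; rho = 0.69, p = 0.0694, adjusted p = 0.486), with r = 0.62 after removal of group means and 0.49 without mice 5 and 8. As a description, their r was 0.98 among the 4 anti-BAFF Ab-treated and -0.13 among the 4 control Ab-treated mice. Other pairs differed as much, such as Cxcl3 and Pf4 (0.99 and -0.25) and Cxcl5 and Cxcr2 (0.59 and -0.98). With 4 mice a group such values are unstable, and nothing particular to Cxcl3 and Cxcl5 or to the treatment is read from them. Ppbp and Cxcr2 had r = 0.96 (exact permutation p = 0.00632, adjusted p = 0.0664; rho = 0.76, p = 0.0368, adjusted p = 0.386), which fell to 0.61 without mice 5 and 6. Cxcl1 and Cxcl5 had r = 0.54 (exact permutation p = 0.163, adjusted p = 0.38; rho = 0.33, p = 0.428, adjusted p = 0.642), and the value moved with the mice included, to 0.10 without mice 1 and 10 and to 0.85 without mouse 5.

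The 4 ligand genes Cxcl1, Cxcl2, Cxcl3 and Cxcl5 were also set against the tested cytokine genes Il1a, Il1b, Tnf and Il33, 16 relations that were chosen after the levels had been seen. Cxcl2 followed Il1a closely, from 523 CPM of Cxcl2 and 29.8 CPM of Il1a in mouse 1 to 762 and 87.3 CPM in mouse 10. The correlation was r = 0.98 (exact permutation p = 0.000198, adjusted p = 0.00317 over 16 relations; rho = 0.93, p = 0.00223, adjusted p = 0.0357, n = 8), with r = 0.98 after removal of group means and 0.94 without the 2 mice farthest from the median of Il1a. It was the only one of the 16 past the adjusted threshold by both measures. Cxcl2 and Il1b had r = 0.91 (exact permutation p = 0.00372, adjusted p = 0.0298; rho = 0.81, p = 0.0218, adjusted p = 0.174), and r = 0.55 without the 2 mice farthest from the median of Il1b. Cxcl5 and Il33, the alarmin of stromal cells, had r = 0.80 (exact permutation p = 0.0122, adjusted p = 0.0487; rho = 0.71, p = 0.0576, adjusted p = 0.23), which fell to 0.33 without the 2 farthest mice and so rests on them. Cxcl1 and Il1a had r = 0.82 (exact permutation p = 0.0113, adjusted p = 0.0487), and 0.59 without the 2 farthest mice. Their Spearman rho of 0.76 did not pass (exact permutation, adjusted p = 0.196). Tnf had no relation past the threshold, and its r with the 4 ligand genes, below 0 over all mice, was above 0 for each (0.22 to 0.65) without the 2 farthest mice. After removal of group means the r of Tnf was -0.66 with Cxcl1, -0.69 with Cxcl2, -0.51 with Cxcl3 and -0.90 with Cxcl5.

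**Figure D5:**
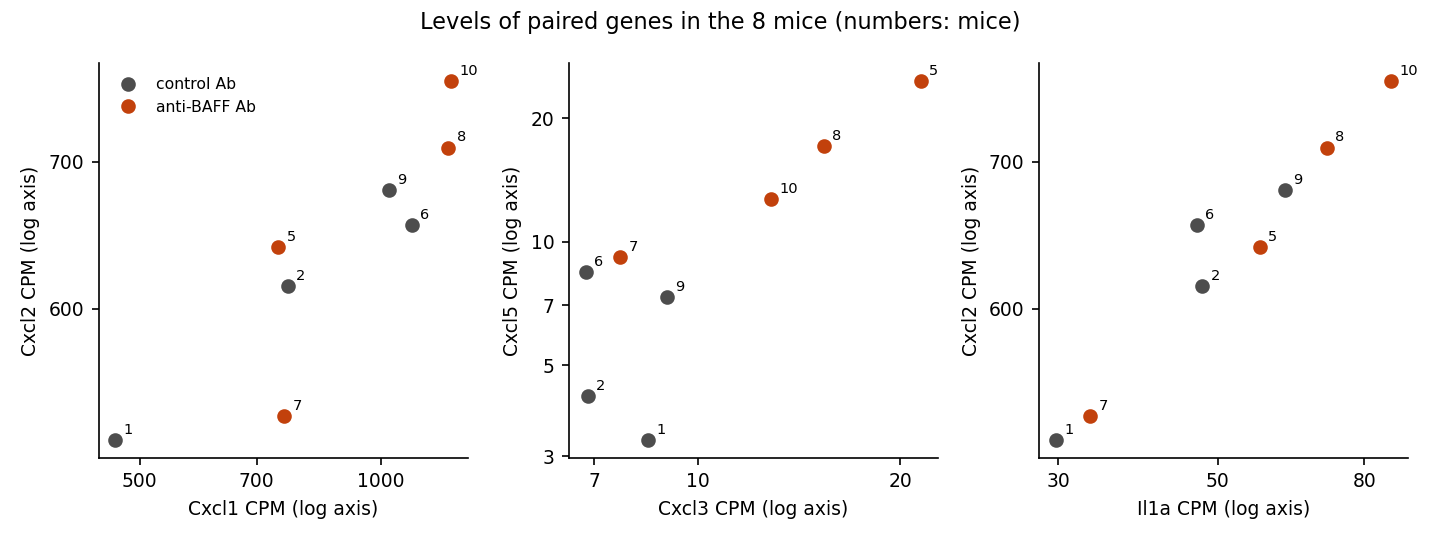
CPM (both axes log) of Cxcl2 against Cxcl1, of Cxcl5 against Cxcl3 and of Cxcl2 against Il1a in the 8 mice, with control Ab-treated mice in grey, anti-BAFF Ab-treated mice in orange and mouse numbers beside the points. The 8 mice follow a line most closely for Il1a and Cxcl2 (r = 0.98), mice 1 and 7 are low for both genes, and for Cxcl3 and Cxcl5 the anti-BAFF Ab-treated mice follow a line.

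The genes whose variation between mice was most like that of Cxcl1, by Pearson r of log2 CPM after removal of group means over 8 mice and among 14235 protein-coding genes, were Sparcl1 (r = 0.997), Mast4 (0.996), Sp4 (0.995), Synpo2 (0.995) and Dcaf1 (0.995). Cxcl1 shared such likeness widely, since 1022 genes (7.18%) had an r above 0.9 with it, and 392 (2.75%) had one with Cxcl2. Il1a was at rank 6 among the genes most like Cxcl2. Fewer genes varied like the other members, whether scarce or abundant. These were 58 (0.407%) with Ppbp, 51 (0.358%) with Cxcl5, 38 (0.267%) with Cxcr2, 34 (0.239%) with the abundant Pf4 and 23 (0.162%) with Cxcl3. The genes most like Cxcl5 were Adgra2 (r = 0.986), Upf2 (0.977), Igsf3 (0.965), Bhlhe40 (0.964) and Ptp4a1 (0.964). The log2 fold changes of these 5 between the groups ran from -0.04 to 0.07, and with group means kept their r with Cxcl5 was 0.53 to 0.83 over 8 mice and 0.335 to 0.746 without mouse 5.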

How the data were processed

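Bulk paired-end RNA-seq of the SVF of 8 mice was used, 4 control Ab-treated and 4 anti-BAFF Ab-treated. The deposited table holds raw gene counts per library, which the authors made on genome build mm10 per the labels; the aligner and counter are not given in the sources used here, so neither is the treatment of strand or of reads that match both Cxcl2 and Cxcl3. Its gene length column is in bases. FPKM, the unit in which the study's methods estimate expression, was computed here from these counts and lengths.

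Groups came from the labels. Genes past filterByExpr (minimum count 10) were scaled by TMM and fitted with edgeR 4.0.16 (glmQLFit, glmQLFTest) in R 4.3.3 with Benjamini-Hochberg adjustment over all 15963 genes. The study's threshold, an adjusted p under 0.05, was kept. CPM used TMM-scaled library sizes, and correlations used log2 CPM with a prior count of 2 and exact permutation tests (Python 3.11.15, scipy 1.17.1). DESeq2 1.42.0, limma 3.58.1 on log2(FPKM + 1), other filters and scalings, and leaving out each mouse were alternatives. The scripts were tested on simulated data. Counts of replicate libraries differed far beyond sampling noise (chi-square over degrees of freedom of at least 7.91), so none was a repeat deposit.

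The members and gene lists were chosen with earlier results of these data known. All members were named, every tested gene of the other CXC ligand and receptor lists could be, and of each further list the 2 most abundant genes, the 2 of largest fold change and any with an unadjusted p under 0.05. The 5 genes most like Cxcl1 and Cxcl5 were named too. Genes beyond this rule (Tnf, Il33, further platelet and B cell markers, single markers in mouse 5 and near 0) were chosen after their values were seen. A planned search of the proteins for the ELR motif was not made.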

Additional observations from a re-analysis of the deposited data

Results flagged for a closer look

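Among 24 sets of 4 mice examined (7 genes by level and 5 ligands by share, in each antibody group), 2 held a mouse far from the other 3 of its group by Dixon's criterion, where chance gives about 1.2. Both were levels in anti-BAFF Ab mouse 5, whose neutrophil transcripts were known when the genes were chosen, so the number is no independent evidence. Ppbp was at 3.50 CPM there, and the gap to the next mouse (0.957 CPM) was 0.914 of the group's range. Cxcr2 was at 8.68 CPM, with a gap of 0.913 of the range to the next mouse (0.938 CPM). Neutrophil markers summed to 222 CPM in that mouse against 45.0 to 72.4 CPM in the rest of its group, and the part of these cells in both values was not tested.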

How the results depend on the processing

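No paired analysis was possible because the mouse numbers differ between the antibody groups. Of the log2 fold changes of the 7 genes, 38 of 40 values under other tests, filters and scalings moved by less than 1 SD between mice, and 54 of 56 did with 1 mouse left out. With limma on log2(FPKM + 1), where low levels are compressed by construction, Ppbp fell to 0.45 and Cxcr2 to 0.46. Leaving out a mouse gave 0.31 to 1.37 for Ppbp and 0.26 to 2.73 for Cxcr2, the lowest both without mouse 5. A minimum of 10 counts in every mouse left out Ppbp and Cxcr2. DESeq2 called 70 genes where edgeR called 9, 1 of the 7 genes (Cxcl5) where edgeR called 0, and 7 genes of the lists where edgeR called 2 (Ighm and Igkc). Without a filter on low counts 19 genes were called, and 4 of the 7 genes passed the unadjusted threshold in place of 2 (2.27% of all genes against 1.9%). With 1 mouse left out, 2 to 9 genes were called, 0 to 0 genes of the lists at the adjusted threshold, 9 to 27 at the unadjusted one (12 with all mice, 27 without control Ab mouse 1), and 2 to 4 of the 7 genes at the unadjusted one, where 1.65 to 10.5% of all genes passed (10.5% without control Ab mouse 1, at most 2.59% otherwise). The number of pairs of the 7 genes past the adjusted threshold was 0 to 2. Cxcl1 and Cxcl2 kept r of 0.83 to 0.95, but passed the threshold in only 3 of 8 cases, not without control Ab mouse 1, 6 or 9 or anti-BAFF Ab mouse 8 or 10. Of the 16 relations with cytokines 1 to 4 passed it, and Cxcl2 with Il1a did each time (r 0.96 to 1.00). The cause of these changes was not tested. Cxcr2 at 3 to 129 counts and Ppbp at 7 to 52 counts are limited by depth in the other mice.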
